A study of Homo sapiens with 3 samples.

Results

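The genes described here are neighbours on the short arm of human chromosome 20 (20p), from NRSN2 near the tip of the arm to NINL near the centromere. A list of 60 gene symbols was drawn up because neighbours along this arm had shown higher signals together on the array of the nm23-H1 transfectant, so the values below are a description of the genes that were chosen and no test of them. All 60 symbols lie on chromosome 20 in the reference assembly GRCh38.p14. Of these, 47 had a probe set annotated to them alone, against 11963 genes in the whole table, and they held 89 probe sets in all. NOP56 had a probe set only in common with small RNAs and was left out, and 12 others (TBC1D20, SDCBP2, STK35, MRPS26, GPCPD1, TRMT6, CRLS1, DTD1, NAA20, CRNKL1, XRN2 and ABHD12) were not analysed here.

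The cells were CAL 27, a line from a poorly differentiated squamous cell carcinoma of the tongue, measured on 3 Affymetrix arrays. The vector group carried pEGFPC1, a plasmid for the green fluorescent protein EGFP, without an insert. The nm23-H1 group carried the same plasmid with nm23-H1, and the nm23-H2 group carried pEGFPC1 with nm23-H2. These encode nucleoside diphosphate kinases, which pass phosphate between nucleotides. The labels call each transfection stable, and the series describes RNA from expressing clones and from a single clone with the empty vector, without describing the nm23-H2 cells. Each group was 1 array, so every difference is also one between separately grown transfectants, and no test between groups was possible.

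Human chromosome 20 carries its genes on a short arm and a long arm (20q) joined at the centromere. Genes of 20p have unrelated functions, among them RNA splicing, DNA replication, glycogen breakdown, membrane traffic and Notch signalling, and share mainly their place on the chromosome. The number of copies of the arm was not measured in these samples. In bulk RNA a larger share of cells expressing a gene and more RNA per cell cannot be told apart.

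Signals are the deposited MAS5 intensities, multiplied to give all arrays the same trimmed mean. Signals under a floor of 28.3 units, the median of all values, were raised to it, which makes any fold from a floored array a lower bound. Of the 47 genes, 41 exceeded the floor somewhere among the 3 arrays and are called measured. TGM3, a transglutaminase of the cornified envelope, the phospholipases PLCB1 and PLCB4, ESF1, KIF16B and RBBP9 were at the floor on all 3 arrays by the probe set used, so their differences could not be read from it. A further probe set of PLCB1, with a name ending in _x_at, gave 38.7 units for vector, 31.8 for nm23-H1 and 32.9 for nm23-H2, log2 differences of -0.29 and -0.24. With no replicates, the available gauge of error was how far different probe sets for a gene differed. This had an SD of 0.32 on the log2 scale for nm23-H1 against vector (1758 genes), 0.35 for nm23-H2 against vector (1641 genes) and 0.39 for nm23-H1 against nm23-H2 (1656 genes). It does not cover the spread between cultures, clones or hybridisations.

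The arrays held the RNA of squamous keratinocytes. All 6 squamous keratinocyte markers with a probe set were above the floor on every array, with a summed signal of 29886 units for vector, 25580.5 for nm23-H1 and 40297 for nm23-H2. Of 5 fibroblast markers, 0 were above the floor for vector and 1 for each nm23 array. Of 5 endothelial markers, PECAM1 alone was above it, at 35.3 units for vector and 43.6 for nm23-H1. Of 4 leukocyte and myeloid markers, 1 was above the floor for vector, 2 for nm23-H1 and 1 for nm23-H2. These were ITGAM, at 55.5, 42.0 and 30.04 units, and CD14, at 50.1 units for nm23-H1, while PTPRC, the pan-leukocyte marker, and LYZ were below the floor on all arrays. NME1, the gene of nm23-H1, gave 1519 units for vector, 2379 for nm23-H1 and 1132 for nm23-H2.

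The stretch of DNA just upstream of a gene's start site is where most of its promoter lies, and that of 4 consecutive measured genes at the centromere end of the arm is shown because ENTPD6, PYGB and GINS1 were at least 2-fold higher on the nm23-H1 array and NINL was not. ENTPD6, PYGB, GINS1 and NINL follow each other in this order among the measured genes. The 250 bases before each start are from RefSeq, build GRCh38.p14, at chr20:25195462-25195711, chr20:25247835-25248084 and chr20:25407423-25407672 on the plus strand and chr20:25585532-25585781 on the minus strand. Capitals mark matches, on either strand, to the letters GGGCGG, called the Sp1 or GC box. They also mark matches to the letters CCAAT, the site of the factor NF-Y, and neighbouring matches can overlap.
ENTPD6: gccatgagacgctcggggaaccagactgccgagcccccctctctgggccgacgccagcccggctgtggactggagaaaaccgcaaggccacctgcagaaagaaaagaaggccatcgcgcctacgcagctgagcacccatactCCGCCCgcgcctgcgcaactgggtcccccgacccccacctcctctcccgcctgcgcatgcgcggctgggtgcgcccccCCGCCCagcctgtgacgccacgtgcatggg
PYGB: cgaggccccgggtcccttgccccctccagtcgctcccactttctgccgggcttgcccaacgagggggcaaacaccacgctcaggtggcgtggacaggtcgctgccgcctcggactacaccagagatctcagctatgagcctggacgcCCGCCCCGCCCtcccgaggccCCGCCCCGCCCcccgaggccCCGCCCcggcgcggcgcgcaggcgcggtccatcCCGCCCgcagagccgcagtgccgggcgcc
GINS1: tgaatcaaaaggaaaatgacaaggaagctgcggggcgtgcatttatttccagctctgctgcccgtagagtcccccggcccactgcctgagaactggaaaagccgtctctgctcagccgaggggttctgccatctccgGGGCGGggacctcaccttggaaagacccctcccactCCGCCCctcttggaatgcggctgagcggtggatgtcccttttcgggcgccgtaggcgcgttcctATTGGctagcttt
NINL: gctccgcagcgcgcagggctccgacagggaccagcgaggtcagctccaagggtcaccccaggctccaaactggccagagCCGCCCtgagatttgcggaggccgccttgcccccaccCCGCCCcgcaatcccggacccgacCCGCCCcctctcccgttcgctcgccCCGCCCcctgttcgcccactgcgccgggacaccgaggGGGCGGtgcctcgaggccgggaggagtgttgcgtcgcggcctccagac

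The windows of ENTPD6, PYGB, GINS1 and NINL held 2, 6, 2 and 5 GC boxes, and GINS1 alone had a CCAAT box. The window of NINL, which was not higher, was 74.4% G or C, between those of PYGB (76.4%) and of ENTPD6 (70.4%) and GINS1 (60%). Upstream windows were found for 48 of the 60 genes. GGGCGG was present in 33 of the 48 (68.8%), against 42.3% of all 27305 windows of that length in the table, and CCAAT in 15 (31.2%) against 33.0%. TATAAA was present in 1 of 48, against 11.1% of all windows, TTTGGCGC and TTTCCCGC, forms of the E2F site, in 1 each, against 0.553% and 1.42%, and TGACGTCA, the cAMP response element, in 2, against 1.77%. The median window of the 20p genes was 68.4% G or C with 22.5 CpG dinucleotides, against 58.0% and 11 over all windows. A match describes letters in the window, and binding was not measured.

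Across the 41 measured genes, signals were lowest on the vector array for 35 and highest on the nm23-H1 array for 32. The 35 include RASSF2, BTBD3 and CD93, where vector and nm23-H2 were both at the floor and had no order. The ranges of the arrays overlapped. The median gene gave 61.4 units for vector, 159 for nm23-H1 and 134 for nm23-H2, and 7, 1 and 4 genes were at the floor. The median difference between nm23-H1 and vector was 1.20 on the log2 scale, a 2.30-fold higher signal, with quartiles of 0.87 and 1.49. At least 2-fold higher were 28 of 41 genes and at least 2-fold lower were 0, where 2.16% and 1.71% of all 8000 measured genes were so. The genes were chosen by these same signals, with the values of all 3 arrays in view, so nothing follows from this count or from those of the other comparisons. Above vector were 39, where 49.5% of all measured genes were, and the 2 others were SNAP25 and NINL. The median difference over all measured genes was 0.00.

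Between nm23-H2 and vector the median difference of the same genes was 0.74 (1.68-fold), with wider quartiles of 0.06 and 1.13, while the median of all measured genes was -0.06. Past 2-fold higher were 14 of 41 and past 2-fold lower 0, against 3.54% and 3.62% of all measured genes. The pair of comparisons shares the vector array, so a low signal there raises both. By the mean of all probe sets of a gene, the median was 0.37. At least 2-fold higher with nm23-H2 by that mean were 8 genes, against 2.77% of all measured genes. Probe sets at the floor on both arrays enter that mean as a difference of 0, which draws it towards 0. Between nm23-H1 and nm23-H2 the median was 0.38, over an all-gene median of 0.08, and 32 genes were above 0 and 8 below, against 56.2% and 39.2% of all measured genes. GINS1, MKKS, TMEM230 and NXT1 were at least 2-fold higher with nm23-H1 than with nm23-H2, 4 in all, and PYGB was the 1 lower, against 3.74% of all measured genes in each direction. The nm23-H2 signal lay between vector and nm23-H1 for 25 genes, at or above nm23-H1 for 7 (NSFL1C, ITPA, PRNP, JAG1, RRBP1, THBD and PYGB), and at or below vector for 7 that were higher with nm23-H1 (RNF24, SMOX, RASSF2, BTBD3, CD93, NXT1 and GINS1).

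**Figure D1:**
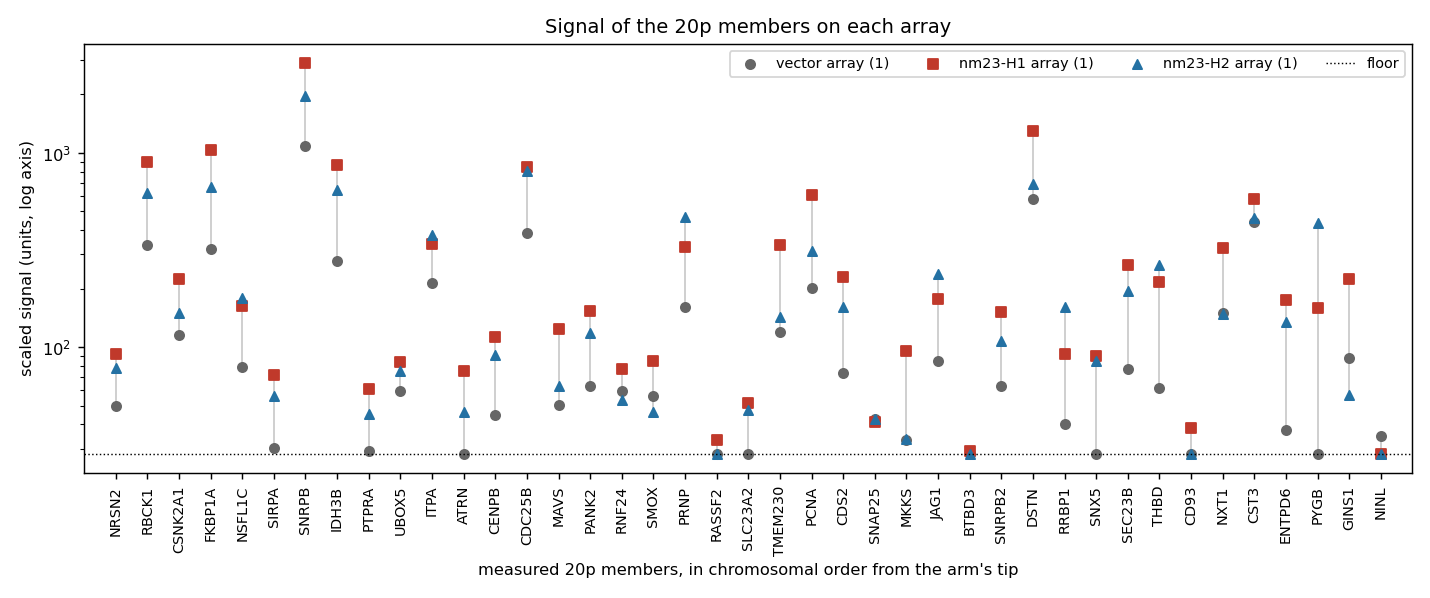
Scaled signal of the 41 measured 20p genes on each of the 3 arrays (log axis, units), in chromosomal order; grey lines join the values of a gene and the dotted line is the floor of 28.3 units, to which lower values were raised. The vector array is the lowest for 35 genes, counting 3 that tie with nm23-H2 at the floor, and the nm23-H1 array the highest for 32, while PYGB, THBD, RRBP1, PRNP and JAG1 are highest on the nm23-H2 array.

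Genes of RNA processing and RNA export had 3 measured members, and all 3 were at least 2-fold higher with nm23-H1. The counts of this group and of those below divide by function the 28 genes higher with nm23-H1 and the 14 with nm23-H2. The shares of all measured genes were 2.16% and 3.54%. The list was chosen for high values, so nothing follows from these counts about the functions. SNRPB encodes the SmB proteins of the ring on which spliceosomal small nuclear RNAs are packed. It gave 1077 units for vector, 2879 for nm23-H1 and 1963 for nm23-H2, which was 2.67-fold and 1.82-fold the vector level, and it was the brightest of the listed genes on every array. Its second probe set gave log2 differences of 1.28 and 0.83, close to the 1.42 and 0.87 of the first. SNRPB2, a protein of the U2 particle, gave 63.1, 151 and 107 units in the same order, which put nm23-H1 at 2.39-fold and nm23-H2 at 1.69-fold the vector level. NXT1, a cofactor of messenger RNA export, was high on a single array, with 149 units for vector, 323 for nm23-H1 and 148 for nm23-H2. Its difference between nm23-H1 and nm23-H2 was 1.13, or 0.91 with the values as deposited.

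Genes of DNA replication and cell division had 5 measured members, of which 4 were at least 2-fold higher with nm23-H1 and 2 with nm23-H2. PCNA, the sliding clamp of DNA polymerases, gave 202 units for vector, 606 for nm23-H1 and 313 for nm23-H2, log2 differences of 1.58 and 0.63. GINS1, a subunit of the replicative helicase, gave 88.2, 224 and 56.9 units. It was thus 2.54-fold higher with nm23-H1 but 1.55-fold lower with nm23-H2, the only listed gene measured as lower than vector by 1.5-fold or more on either array, where 7.52% of all measured genes were so with nm23-H1 and 14.3% with nm23-H2. At 1.98, its difference between nm23-H1 and nm23-H2 was the largest among the listed genes. CENPB, which binds centromeric satellite DNA, gave 44.5, 113 and 91.2 units, and the next measured gene, CDC25B, the phosphatase that activates cyclin-dependent kinases, gave 388, 844 and 808 units. CENPB and CDC25B therefore stood at least 2-fold above vector on both nm23 arrays. NINL, a centrosome protein, gave 35.0 units for vector and was below the floor on the other arrays, so it was lower by at least 1.23-fold, and whether it passed 1.5-fold could not be read.

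Metabolic enzymes and transporters had 8 measured members, of which 5 were at least 2-fold higher with nm23-H1 and 4 with nm23-H2. PYGB, the brain form of glycogen phosphorylase, which releases glucose units from glycogen, was below the floor for vector (9.19 units) and gave 159 units for nm23-H1 and 433 for nm23-H2, at least 5.61-fold and at least 15.3-fold higher. Its nm23-H2 signal was 2.72-fold the nm23-H1 signal. With the floor at the 70th percentile its log2 differences were at least 1.26 and 2.71, in place of 2.49 and 3.93. ENTPD6, a nucleoside diphosphatase and the measured gene before PYGB, gave 37.4, 175 and 134 units, 4.67-fold and 3.59-fold the vector level, or 1.40 and 1.02 on the log2 scale with the higher floor in place of 2.22 and 1.84. CDS2, which makes CDP-diacylglycerol for phospholipid synthesis and is the next measured gene after PCNA, gave 73.4, 229.7 and 161 units (3.13-fold and 2.19-fold). Its second probe set gave 1.97 and 0.82 on the log2 scale, under 2-fold with nm23-H2. IDH3B, a subunit of the citric acid cycle's isocitrate dehydrogenase, gave 277, 867 and 640.2 units. Its further probe sets gave smaller differences of 0.73 and 0.85 with nm23-H1 than the 1.64 of the probe set used. With nm23-H2 they gave 0.27 and 0.90, under 2-fold, in place of 1.21.

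The remaining metabolic genes were PANK2, ITPA, SLC23A2 and SMOX. PANK2, the first enzyme of coenzyme A synthesis, gave 63.0, 154 and 118 units and was 2.44-fold higher with nm23-H1. ITPA, which removes inosine triphosphate, gave 215, 339 and 377 units and stayed under 2-fold on both nm23 arrays. SLC23A2, a vitamin C transporter, was below the floor for vector and gave 51.8 and 47.5 units on the nm23 arrays, at least 1.83-fold and 1.68-fold. SMOX, spermine oxidase, gave 55.8 units for vector, 84.5 for nm23-H1 and 46.4 for nm23-H2, so it was 1.51-fold higher with nm23-H1 and 1.20-fold lower with nm23-H2.

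Genes of membrane traffic, the cytoskeleton and cilia had 9 measured members, of which 7 were at least 2-fold higher with nm23-H1 and 4 with nm23-H2. SEC23B, of the COPII coat that carries proteins out of the endoplasmic reticulum, gave 77.3 units for vector, 265 for nm23-H1 and 194 for nm23-H2 (3.43-fold and 2.51-fold). Another of its probe sets gave 1.98 and 1.67 on the log2 scale. The dimmest was below the floor for vector and nm23-H2, so it gave at least 0.70 with nm23-H1 and no reading with nm23-H2. SNX5, a sorting nexin of endosomes, was below the floor for vector and gave 90.1 and 84.7 units, at least 3.18-fold and 2.99-fold higher. With the floor at the 70th percentile its log2 differences were 0.44 and 0.36. DSTN, which cuts actin filaments, gave 579, 1292 and 690.5 units, and both of its probe sets placed nm23-H1 high (1.16 and 1.18) and nm23-H2 near vector (0.25 and 0.29).

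MKKS, a chaperonin-like protein of cilia, and TMEM230, a membrane protein of vesicles, were likewise high on the nm23-H1 array alone. MKKS gave 33.1 units for vector, 95.4 for nm23-H1 and 33.7 for nm23-H2, and TMEM230 gave 120.2, 337 and 142 units. MKKS was at 0.53 with the floor at the 70th percentile, which lies above its vector and nm23-H2 signals. NSFL1C, a cofactor of the p97 ATPase, gave 78.7, 162 and 179.9 units, so it was about as high on both nm23 arrays by this probe set. Its further probe sets gave 0.82 and 0.85 with nm23-H1 and 0.46 and 0.96 with nm23-H2, all under 2-fold. RRBP1, a ribosome-binding protein of the endoplasmic reticulum, gave 39.96, 92.1 and 161 units (2.30-fold and 4.03-fold), but its probe sets with names ending in plain _at gave 0.73 and -0.13 by the brighter on vector, and 0.39 and 0.41 (bounds) by the other, so its direction with nm23-H2 differed between probe sets. The nm23-H1 difference of RRBP1 was 0.48 in place of 1.20 with the higher floor. NRSN2, a neuronal vesicle protein, gave 50.03, 91.6 and 77.9 units and was under 2-fold on both. SNAP25, the synaptic fusion protein, gave 42.8, 41.2 and 42.5 units and was level on all arrays, and 2 of 4 neuron markers were above the floor on each.

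Cell surface and signalling genes had 10 measured members, of which 7 were at least 2-fold higher with nm23-H1 and 4 with nm23-H2. JAG1, a ligand of Notch receptors, gave 84.7 units for vector, 177 for nm23-H1 and 239 for nm23-H2 (2.09-fold and 2.82-fold), and a second probe set gave 1.28 and 1.76 on the log2 scale. A further probe set of JAG1, with a name ending in _x_at and 108 units for vector, gave 0.69 and 1.10, under 2-fold with nm23-H1. By the mean of its probe sets, of which 1 was below the floor throughout, the nm23-H1 difference was 0.76. THBD, thrombomodulin, the thrombin receptor of endothelium and keratinocytes, gave 61.4, 217 and 265 units (3.54-fold and 4.32-fold), and its second probe set went the same way (1.53 and 1.84). The endothelial markers CDH5, VWF, TEK and KDR were below the floor on all arrays, and PECAM1 was below it on the nm23-H2 array, where THBD was highest. CD93, a receptor whose gene was measured next to THBD and also known from endothelium, was above the floor on the nm23-H1 array alone, at 38.5 units.

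FKBP1A, the target of the drugs FK506 and rapamycin, gave 318 units for vector, 1033 for nm23-H1 and 669 for nm23-H2. It was 3.24-fold and 2.10-fold the vector level. Its brighter further probe sets gave 1.51 and 1.90 with nm23-H1 but 0.61 and 0.53 with nm23-H2, under 2-fold. The mean of all its probe sets gave 0.55 with nm23-H2, counting as 0 a dim probe set at the floor for vector and nm23-H2. PRNP, the prion protein, gave 161, 327 and 468 units (2.04-fold and 2.91-fold), whereas its second probe set was level (0.02 and -0.18), so the mean of the pair was 0.52 and 0.68. SIRPA, an inhibitory receptor that binds CD47, gave 30.1, 72.1 and 56.1 units, and PTPRA, a receptor tyrosine phosphatase, gave 29.2, 60.7 and 45.3. Both were at least 2-fold higher with nm23-H1 by these probe sets, from a vector signal just above the floor. A further probe set of SIRPA, with more signal on the vector array (46.9 units), gave 0.50 with nm23-H1 and -0.28 with nm23-H2, so it was under 2-fold and opposite in direction with nm23-H2. ATRN, attractin, was at least 2.67-fold higher with nm23-H1 by a vector signal below the floor. CSNK2A1, the catalytic subunit of casein kinase 2, gave 115, 223 and 150.5 units and just missed 2-fold with nm23-H1 (1.94-fold). RASSF2, a Ras effector, was above the floor with nm23-H1 alone, at 33.2 units.

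The ubiquitin, innate immunity and protein modification group had 5 measured members and the smallest median difference of the larger groups, 0.49 with nm23-H1 and 0.32 with nm23-H2. RBCK1, of the complex that makes linear ubiquitin chains, gave 337 units for vector, 896 for nm23-H1 and 618 for nm23-H2 (2.66-fold and 1.83-fold), and its second probe set gave almost the same differences (1.46 and 0.94). MAVS, the mitochondrial adaptor of viral RNA sensing, gave 50.5, 125 and 63.2 units and was 2.47-fold higher with nm23-H1. UBOX5, an E3 ligase (59.6, 83.9 and 75.1 units), and RNF24, a RING finger protein (59.7, 77.1 and 53.4 units), were under 2-fold on both nm23 arrays. A further probe set of RNF24 gave 0.93 with nm23-H1, and that of UBOX5 gave -0.13. CST3, the protease inhibitor cystatin C, was bright on all arrays with 440.2, 579 and 459 units and a difference of 0.40 with nm23-H1. BTBD3 was barely above the floor, and on the nm23-H1 array alone (29.1 units).

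**Figure D2:**
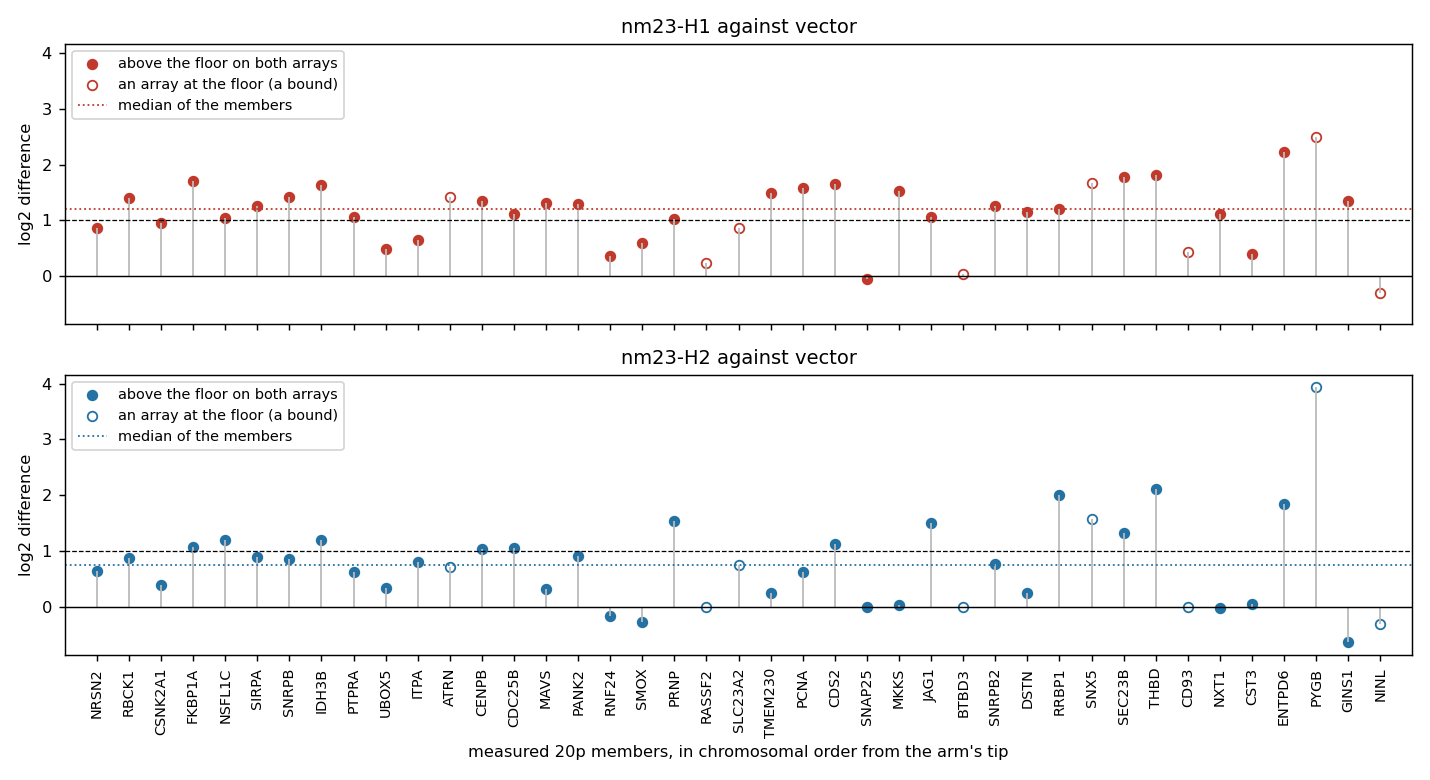
Log2 difference of each measured 20p gene from the vector array, for nm23-H1 (top) and nm23-H2 (bottom), in chromosomal order; open points are bounds because an array was at the floor, the dashed line marks 2-fold and the dotted line the median of the genes (1.20 and 0.74). With nm23-H1 the points from NRSN2 to GINS1 form a band that is mostly at 1 or above, and with nm23-H2 the same genes spread from -0.63 (GINS1) to 3.93 (PYGB).

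The difference from vector was more even with nm23-H1 than with nm23-H2, among all genes above the floor as among the 20p genes. Among the 33 genes above the floor on both arrays, the nm23-H1 differences had a median of 1.26 and an SD of 0.48 over genes, where 6533 genes of the whole table had an SD of 0.44 around 0.00. The nm23-H2 differences had a median of 0.81 and an SD of 0.66, where 6166 genes had an SD of 0.56. The spread with nm23-H1 was therefore near that of all genes, around a higher centre. The 20p genes were chosen for signals that were higher together, so this centre and its spread are partly fixed by the choice. Probe set disagreement was 0.38 for 14 of these genes with nm23-H1, and 0.49 for 13 genes with nm23-H2. The 21 genes with the higher mean over the 3 arrays (at least 104 units) had a median of 1.35 with nm23-H1 and 18 were at least 2-fold higher. The 20 dimmer genes had a median of 0.96 and 10 were at least 2-fold higher, and the floor understates the differences of dim genes. The mean includes the signals compared, so a higher nm23 signal itself places a gene among the brighter ones, and the gap is partly fixed by the split.

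Further probe sets gave readings of the same RNA with other probes. Of 42 further probe sets of the 20p genes, 31, for 21 genes, exceeded the floor somewhere. With nm23-H1, 29 of the 31 were above 0 and 2 below, with a median of 0.82, and 11 were at least 2-fold higher. Among all measured genes, 49.5% were above 0 and 2.16% at least 2-fold higher. Further probe sets of genes already at least 2-fold higher numbered 23, and all 23 went the same way. With nm23-H2, 19 of the 31 were above 0 and 5 below, with a median of 0.29, and 4 were at least 2-fold higher. Of all measured genes, 40% were above 0, 54.5% below and 3.54% at least 2-fold higher. Further probe sets of genes at least 2-fold higher with nm23-H2 numbered 16, and 12 went the same way.

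**Figure D3:**
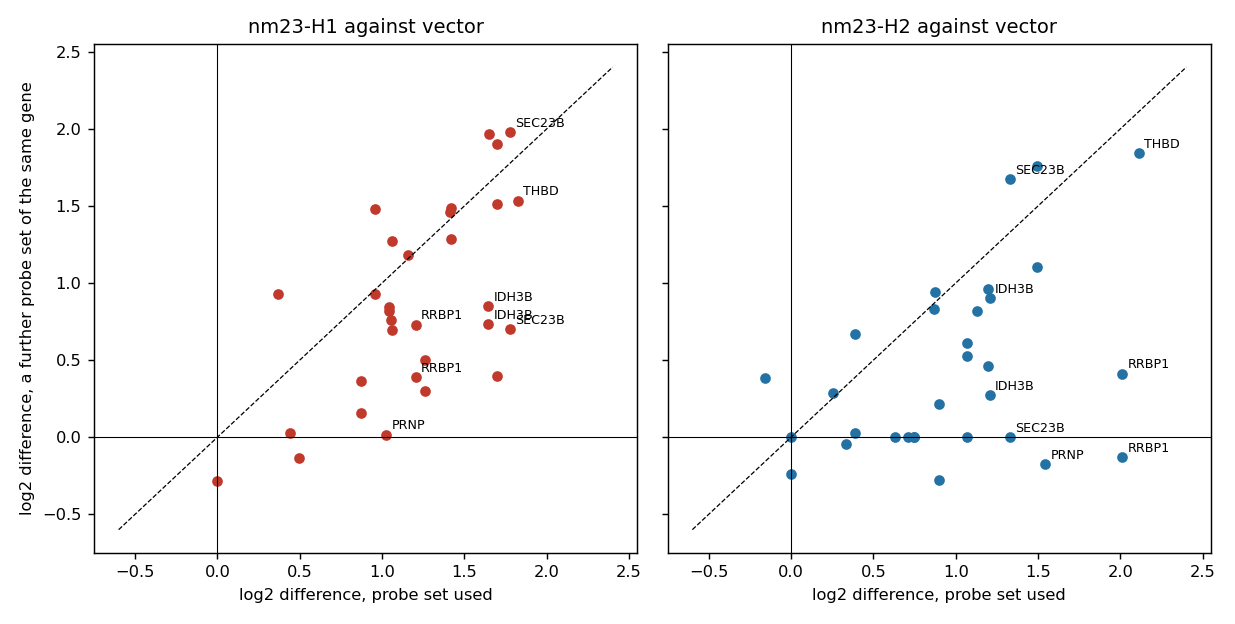
Log2 difference from vector by a further probe set of a 20p gene (vertical axis) against that by the probe set used (horizontal axis), for 31 further probe sets of 21 genes; the dashed line marks equality. With nm23-H1 (left) 29 points lie above 0, and with nm23-H2 (right) several lie at 0, where both arrays were at the floor. Others lie below 0 with nm23-H2, among them that of PRNP and a probe set of RRBP1.

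Along chromosome 20 the median of the long arm with nm23-H1 was that of all genes, while the short arm was chosen for higher signals. All 72 measured genes of 20p, whether on the list or not, had a median difference of 1.06 with nm23-H1. Of these, 40 reached 2-fold upward and 0 downward. The 72 include the 41 listed genes, chosen for high values, so this median and count are partly fixed by the choice. The 31 others had a median of 0.38. The 166 measured genes of 20q had a median of 0.00, and the share at least 2-fold higher was 1.81%, against 2.16% of all genes. These were NDRG3, DHX35 and EYA2, and PI3 and SLPI were at least 2-fold lower, 5 genes named after their values were seen. ZNF337, the last measured gene of the short arm and not on the list, gave 48.6 units for vector, 105 for nm23-H1 and 76.7 for nm23-H2. The 24 measured genes of the first 5 Mb step of the long arm, from ID1 to GSS, had a median of 0.00 and 0 were at least 2-fold higher.

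With nm23-H2 the median of 20p was 0.37 and that of 20q was -0.14. Past 2-fold upward were 19 of the 72 genes of 20p, against 3.54% of all measured genes. The 41 listed genes among the 72 were chosen for high values. The 31 others had a median of 0.00 with nm23-H2, against -0.06 over all measured genes. The 1 gene of 20p that was at least 2-fold lower, named after its values were seen, was CHGB, a protein of secretory granules, at 73.3 units for vector, 40.1 for nm23-H1 and below the floor for nm23-H2. In steps of 5 Mb along the short arm, the nm23-H1 medians from the tip were 1.03 (33 genes, NRSN2 to SLC23A2), 1.32 (8, TMEM230 to TMX4), 0.33 (5, SNAP25 to FLRT3), 1.27 (8, SNRPB2 to RIN2), -0.01 (13, KIZ to APMAP) and 1.35 (5, ENTPD6 to ZNF337). The nm23-H2 medians of these steps were 0.74, 0.12, 0.03, 1.06, -0.01 and 0.66. Listed genes, chosen for high values, made up 21, 3, 4, 5, 4 and 4 of the genes of these steps. In the steps at 0.33 and -0.01, 2 of 5 and 4 of 13 genes were at least 2-fold higher, so the stretch of high genes was not unbroken.

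**Figure D4:**
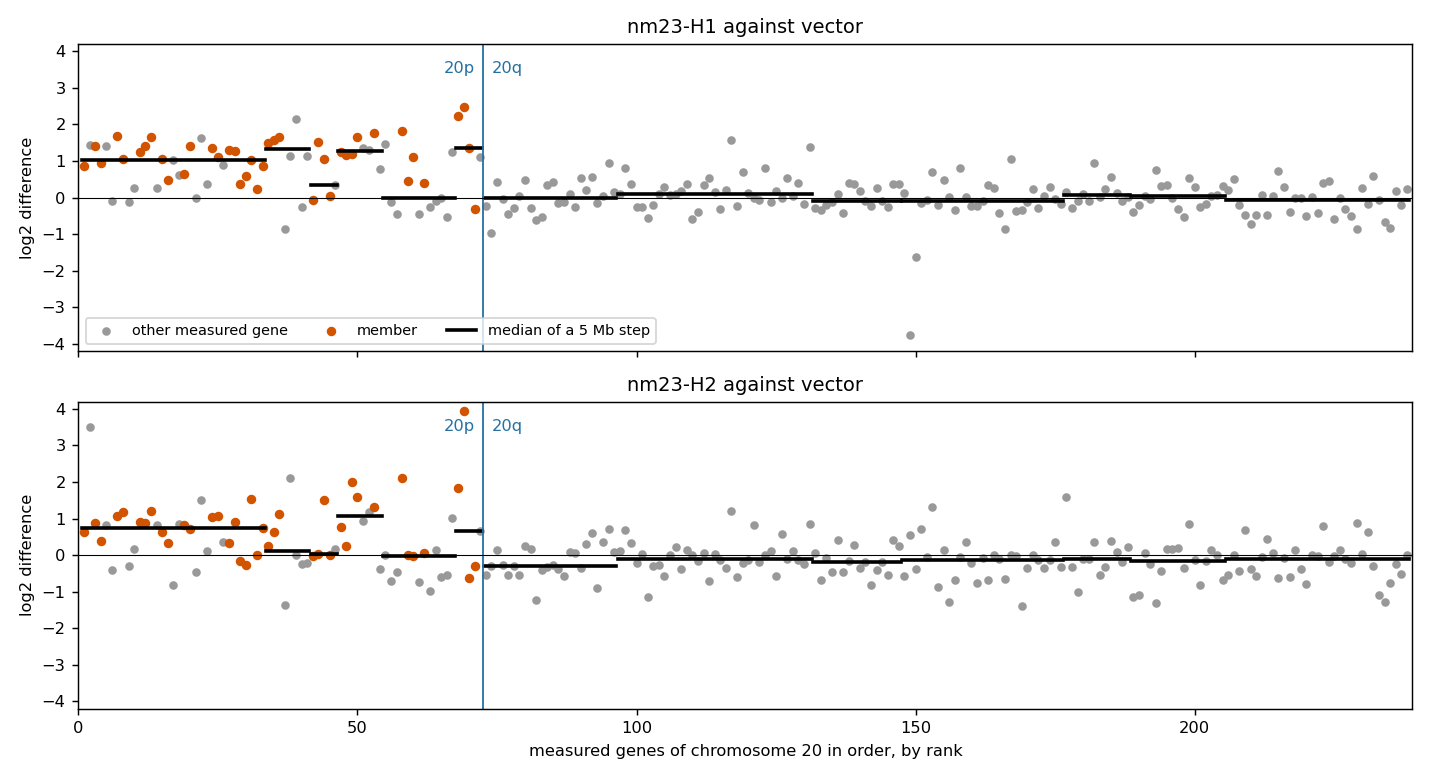
Log2 difference from vector of the 238 measured genes of chromosome 20, placed by rank from the tip of 20p to the end of 20q (horizontal axis), for nm23-H1 (top) and nm23-H2 (bottom); orange points are genes of the list, grey points the others, black bars the medians of 5 Mb steps, and the blue line parts the arms. With nm23-H1 the step medians lie between -0.01 and 1.35 on 20p and between -0.09 and 0.11 on 20q. Those of 20p pool the listed genes, chosen for high values, with the others.

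The 31 measured genes of 20p outside the list had a median of 0.38 with nm23-H1 and 0.00 with nm23-H2, while the listed genes had been chosen for high values. Of these 31, 12 were at least 2-fold higher with nm23-H1 and 0 lower, against 2.16% and 1.71% of all measured genes. BMP2, a bone morphogenetic protein, was below the floor for vector and nm23-H2 and gave 125 units for nm23-H1, at least 4.40-fold higher. ADISSP (84.6, 261 and 240.1 units for vector, nm23-H1 and nm23-H2), APMAP (138, 331 and 278 units) and ZNF133 (55.2, 135 and 126 units) were high on both nm23 arrays. The transcription factor gene OVOL2 (75.2, 193 and 144 units) and PSMF1, a proteasome inhibitor (282, 755 and 502 units), had nm23-H2 signals in between. TMX4 (64.2, 142 and 55.1 units), FASTKD5 (66.7, 137 and 37.9 units) and KIZ, at least 2.75-fold higher, were high with nm23-H1 alone. TRIB3, a pseudokinase of the stress response (267, 724 and 3026 units), and FERMT1, kindlin-1 (111, 244 and 476 units), were highest with nm23-H2.

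Many of the 20p genes encode subunits of complexes or steps of pathways whose other parts lie elsewhere in the genome, and these partners were not higher as a body. Partners were listed from textbook knowledge, and 98 of 117 partner genes outside 20p were measured. The 20p genes were chosen for high values and the partners were not, so a gap between them is partly fixed by the choice. The cause of such a gap was not tested. Their median was -0.07 with nm23-H1 and -0.18 with nm23-H2, and 1 was at least 2-fold higher and 5 lower with nm23-H1, against 2.16% and 1.71% of all genes. With nm23-H2, 4 were higher and 3 lower, against 3.54% and 3.62%.

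Of the 10 other proteins of the spliceosomal core and of the U1 and U2 particles, 8 were below vector with nm23-H1, where 47.8% of all measured genes were, while SNRPB and SNRPB2 were above. SNRPD3, the partner of SmB in the ring, gave 531 units for vector, 203 for nm23-H1 and 318 for nm23-H2, and SNRPA1, the partner of SNRPB2 in the U2 particle, gave 614, 218 and 534. The differences of SNRPD3 and SNRPA1 with nm23-H1 were -1.39 and -1.49. SNRPE was lower with nm23-H2 (-1.30). All 5 measured genes of the PRP19 splicing complex were below vector with nm23-H1, against the same 47.8% of all genes, and BCAS2 was at -1.11. In the box C/D particle, with which NOP56 works, SNU13 was at -1.12 and FBL, fibrillarin, at -0.08. SNRPD3, SNU13, MCM5 and CDC45, the last of which was higher, lie on chromosome 22.

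The 20 measured genes of the replication fork had a median of -0.01 with nm23-H1, where PCNA and GINS1 were at 1.58 and 1.35. CDC45, which joins the GINS complex in the helicase, was the 1 gene at least 2-fold higher (45.9 units for vector, 117 for nm23-H1 and 99.2 for nm23-H2), and MCM5 the 1 at least 2-fold lower (-1.01). GINS2, GINS3 and GINS4, the other subunits of the GINS complex, were at -0.02, -0.48 and -0.24. With nm23-H2 the replication genes had a median of -0.20, and GINS2, GINS3 and GINS4 at -0.53, -0.63 and -0.25 (a bound) were below vector, as GINS1 was at -0.63. CDC25A and CDC25C, the relatives of CDC25B, were at -0.55 and 0.37 with nm23-H1, and at -1.14 (a bound) and -1.01 with nm23-H2, where CDC25B was at 1.06.

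Of 8 measured genes of glycogen metabolism other than PYGB, 0 were at least 2-fold different with nm23-H1 and 1 was higher with nm23-H2, namely PHKG2, a subunit of phosphorylase kinase (1.49). PYGL, the liver form of the phosphorylase, gave 548 units for vector, 420.1 for nm23-H1 and 555 for nm23-H2. IDH3A and IDH3G, the other subunits of the enzyme of IDH3B, were at 0.49 and -0.16 with nm23-H1 and at 0.43 and 0.49 with nm23-H2. Polyamine genes were at least 2-fold higher with nm23-H2 for ODC1 (1.40) and SAT1 (1.35) among 6, with SMOX at -0.27. The 9 COPII coat genes had medians of -0.13 and -0.12, with 0 at least 2-fold different, where SEC23B was at 1.78 and 1.33. SEC23A, its closest relative, was at -0.37 and -0.25.

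The other Notch pathway genes measured were the 4 receptors, the targets HES1 and HEY1, and JAG2, a ligand like JAG1. Of these 7, 0 were at least 2-fold different on either array, and with nm23-H2 all 7 were below vector (median -0.55), including HES1 (-0.55) and HEY1 (-0.72), where 54.5% of all measured genes were below vector. CSNK2A2 and CSNK2B, of casein kinase 2, were at 0.22 and -0.14 with nm23-H1. SHARPIN, which works with RBCK1, was at 0.19. The RIG-I pathway had 5 measured genes besides MAVS, with a median of -0.01 and 0 at least 2-fold different. The 19 measured proteins of the small mitochondrial ribosomal subunit had medians of -0.19 and -0.22 and 0 at least 2-fold different.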

How the data were processed

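Transcript levels were measured on 3 arrays of 22283 probe sets, 1 per group. The authors deposited 1 linear intensity per probe set, made with MAS5 per the submitters' processing notes; version, scaling target and detection calls are not given in the sources used here. Each array was multiplied (vector 1.11, nm23-H1 1.03, nm23-H2 0.881) to a common mean of the values between the 2nd and 98th percentiles. Values under the pooled median were set to it, and log2 was taken. A gene's probe set was, among the 19071 annotated to a single symbol (19059 updated by gene ID), 1 not ending in _x_at where possible, then the brightest. The 1043 with several symbols and 2169 unlisted ones were left out, and 8000 of 11963 genes were measured. The 20p genes, the lists and the rules were chosen with earlier results of these data known. Values were given for the 12 largest differences per comparison with vector, genes lower than vector by 1.5-fold, the extremes of each group of functions, partner genes past 2-fold and the other 20p genes past 2-fold with nm23-H1. Gene order came from GRCh38.p14. On simulated arrays the same steps recovered a shift planted equally on all probe sets of the 20p genes, among genes above the floor. That is a check of the code alone and says nothing about the values given here. Alternatives were other scalings, floors, probe set rules, the pair of arrays alone and a 1.5-fold threshold. Python 3.11.15, numpy 2.4.6, pandas 2.3.3 and matplotlib 3.10.9 were used.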

Additional observations from a re-analysis of the deposited data

How the results depend on the processing

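The nm23-H1 median of the 20p genes ranged from 1.09 to 1.29 over the alternatives, that of nm23-H2 from 0.37 to 0.96, and that of nm23-H1 against nm23-H2 from 0.18 to 0.48. The lowest nm23-H2 median, 0.37, came with the mean of all probe sets, which also gave 8 genes at least 2-fold higher in place of 14. The share of all measured genes was then 2.77% in place of 3.54%. In that mean, probe sets at the floor on both arrays count as a difference of 0. Probe sets specific by name left 27 measured genes, of which 16 were at least 2-fold higher with nm23-H1 and 6 with nm23-H2. By these probe sets, 2.22% and 3.32% of all measured genes were so. For nm23-H1 against nm23-H2 the count of 4 became 7 with a common median above the floor and 7 with the floor at the 25th percentile. At a threshold of 1.5-fold, 25 genes were higher and 1 lower with nm23-H2 than with vector, against 10.5% and 14.3% of all measured genes. With nm23-H1 compared with nm23-H2, 10 were higher and 2 lower, against 16.2% and 10.5%. RRBP1 with nm23-H2 turned to -0.13 by the brightest of its probe sets specific by name, while another of these gave 0.41. Of 36 named differences of 2-fold or more, 18 were under it in at least 1 alternative, in 29 of 349 values. With the values as deposited the median of all genes was 0.17 for nm23-H2 against vector, and the 20p median stood 0.79 above it. Counting only genes above the floor on both arrays, and centring on all genes, were chosen after seeing the data. No paired analysis was possible because each group had 1 array. Signal near the floor limits the dim genes, and 3 arrays limit the precision.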
